A study of Mus musculus with 8 samples.

Results

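The type I interferon response genes are a set of 35 mouse genes that cells switch on after interferon alpha or beta binds its receptor. They were chosen by name as well known members of the response. All 35 were found by symbol among the 18215 gene numbers listed in the 8 heart libraries. The libraries are polyadenylated heart mRNA of Carns transgenic mice (TG, 4 libraries) and wild-type mice (WT, 4 libraries). Carns1 is the gene of carnosine synthase, the enzyme that makes the dipeptide carnosine. The promoter of the transgene and the strain, age and sex of the mice are not given in the sources used here. It is not stated that each library is a different mouse, and the spread behind every p-value may therefore be technical.

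In the interferon response, cytosolic sensors such as RIG-I and MDA5 recognise foreign RNA and start the production of interferon. Interferon then acts through its receptor and the Janus kinases on transcription factors that include STAT2 and IRF9, which bind a DNA element named the interferon-stimulated response element (ISRE). The genes that carry this element encode proteins that block viral translation, degrade RNA, hold virus particles at the membrane or bring peptides to MHC class I molecules. A low level of many of these transcripts is present in healthy tissues, the heart included, where myocytes, endothelial cells and resident macrophages can all make them.

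The element is visible in the promoters of many of the 35 genes, and a few are shown here because interferon is known to act on such genes through it. RefSeq promoter windows (mouse build GRCm38.p6, 250 bases before to 50 after the transcription start) were matched for 27 of the 35 genes. Usp18, Rtp4, Mx2, Ifi204, Ifi27, Oas2, Mx1 and Ifi27l2a had no entry. The motif searched was GAAANNGAAA, or TTTCNNTTTC on the other strand, and the capitals below mark its GAAA or TTTC parts. It occurred in 16 of the 27 genes (59.3%), against 1079 of all 27025 genes with a window (3.99%). In single windows the share over the genome was 3.44%. The following stretches are written 5′ to 3′ on the strand of the gene and hold the 100 bases before the start of Isg15 (chr4:156200819-156200918, minus strand), Oas1a (chr5:120907526-120907625, minus strand), Gbp3 (chr3:142559944-142560043, plus strand), Irgm1 (chr11:48871421-48871520, minus strand) and Igtp (chr11:58199456-58199555, plus strand).
Isg15: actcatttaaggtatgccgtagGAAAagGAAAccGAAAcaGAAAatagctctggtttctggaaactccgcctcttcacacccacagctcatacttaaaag
Oas1a: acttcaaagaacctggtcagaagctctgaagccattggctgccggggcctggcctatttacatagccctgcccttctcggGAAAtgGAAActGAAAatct
Gbp3: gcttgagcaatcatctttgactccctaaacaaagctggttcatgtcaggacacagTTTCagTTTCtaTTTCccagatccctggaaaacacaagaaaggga
Irgm1: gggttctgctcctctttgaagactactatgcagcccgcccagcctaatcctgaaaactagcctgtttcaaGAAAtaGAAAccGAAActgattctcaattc
Igtp: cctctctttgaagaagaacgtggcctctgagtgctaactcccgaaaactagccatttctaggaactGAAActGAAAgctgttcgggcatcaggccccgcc

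The Isg15 promoter held 3 overlapping matches, the first of which began 78 bases before the start. Oas1a, Gbp3 and Irgm1 each held 2 overlapping matches, and Igtp held 1. Gbp3 had another window (chr3:142560106-142560405, plus strand), which held no match, and the window with the most matches is shown. Ifit3 and Ifit3b, neighbouring genes for closely related proteins, are shown because they share a stretch of 70 bases, identical at 70 of 70 positions, that holds 2 matches. It lies 169 to 100 bases before the start of Ifit3 (chr19:34583360-34583429, plus strand) and 201 to 132 bases before that of Ifit3b (chr19:34607756-34607825, plus strand).
Ifit3: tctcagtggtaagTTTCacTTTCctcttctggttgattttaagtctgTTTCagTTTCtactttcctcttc
Ifit3b: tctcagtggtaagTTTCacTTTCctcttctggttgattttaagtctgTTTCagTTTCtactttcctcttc

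In 11 of the 27 genes no window held these letters, among them Irf7, Xaf1, Psmb8 and Tap1, whose values are described below. A missing match says only that these letters were not in the window. The 100 bases before the start of Irf7 (chr7:141266425-141266524, minus strand) and Xaf1 (chr11:72301529-72301628, plus strand) are printed for comparison and hold no capitals.
Irf7: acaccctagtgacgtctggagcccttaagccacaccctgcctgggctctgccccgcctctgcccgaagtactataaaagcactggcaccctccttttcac
Xaf1: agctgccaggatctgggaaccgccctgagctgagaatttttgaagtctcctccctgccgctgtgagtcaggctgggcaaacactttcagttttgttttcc

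A second motif, TTCNNNGAA, the same on both strands and known as the gamma-activated site, occurred in 6 of the 27 genes (22.2%), against 9.55% of all genes. It overlapped an ISRE match in Bst2 alone. Psmb9 and Tap1 are transcribed away from each other, and their windows, read on opposite strands, shared 275 of 300 positions.

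The libraries held between 6261193 and 7897629 expected counts, so that 3 counts in a library equal 0.380 to 0.479 CPM, the count scaled to the library total. Carns1, the check of the labels, stood at 24288, 19071, 20797 and 19094 CPM in TG replicates 1 to 4 and at 67.6, 73.3, 44.5 and 65.1 CPM in WT replicates 1 to 4, so each library matched its label. The totals fell into a deeper class (TG 1, TG 3, WT 1 and WT 2, from 7394143 counts) and a shallower class (TG 2, TG 4, WT 3 and WT 4, up to 6557621 counts), each with 2 libraries of either group. TG replicate 2 stood apart in markers of fat and of the atria. Ucp1, the uncoupling protein of brown fat, stood at 124 CPM there and at most 0.391 CPM in the other libraries, and Adipoq, adiponectin, at 68.4 CPM and at most 3.12 CPM. The atrial markers summed to 856 CPM there and to between 61.3 and 260 CPM in the other libraries. TG replicate 4 came next in the sum of the fat markers (45.2 CPM) and in the atrial marker Myl7 (46.8 CPM), but not in the atrial sum. In the remaining libraries the fat markers summed to between 2.22 and 20.4 CPM, and Myl7 ran from 1.35 to 18.8 CPM. The heart label was matched by cardiomyocyte markers, which summed to 82600 CPM or more in every library.

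Most interferon genes had slightly lower estimates in TG hearts than in WT hearts, and no single one passed the test. Of the 35 genes, 32 passed the filter on low counts. Oas1g, Mx1 and Mx2 did not. None of the 32 was called by edgeR's quasi-likelihood test at a Benjamini-Hochberg adjusted p of 0.05, where the background was 0.0158% of 12670 genes. DESeq2 called none either, against a background of 0.118%, and limma called none. At an unadjusted p under 0.05 stood 1 of the 32 (3.12%), Gbp3, on the lower side. The background was 1.96% of genes lower and 1.53% higher in TG. This count ran from 0 without WT replicate 4 to 6 with the depth class as a covariate or in the shallower libraries alone. The background moved as well. In both directions together it was 442 of 12670 genes in the comparison above and 562 of 12866 without WT replicate 4. With the covariate it was 1136 of 12670 genes, and in the shallower libraries 706 of 12725. All 32 had an adjusted p of 0.9995 (edgeR, Benjamini-Hochberg).

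The log2 fold changes (TG relative to WT) ran from -0.55 for Gbp3 to 0.43 for Ifi27, which correspond to 1.47 times more in WT and 1.35 times more in TG. They were below 0 in 28 of 32 genes (87.5%), against 50.5% of all genes tested. Their median was -0.17, and that of all genes -0.0017. The genes above 0 were Ifi27, Oas3 (0.36), Isg20 (0.12) and Ifi204 (0.05). Changes were small for most of the set: 17 genes lay between -0.2 and 0.2, and 7 at or below -0.3. In 27 of 32 (84.4%) the 95% interval lay within a 2-fold change in either direction, against 92.8% of all genes. The 5 with wider intervals were Ifih1, Oas3, Ifi27, Ifi44 and Gbp3.

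**Figure D1:**
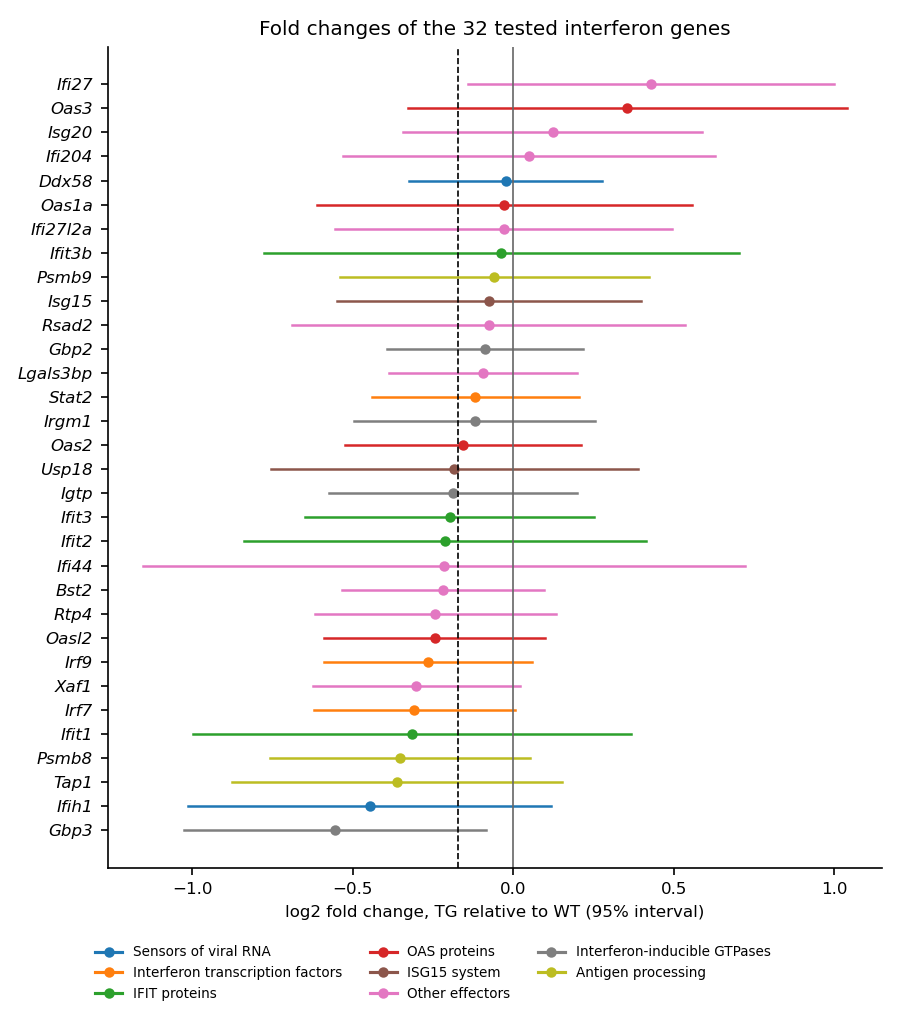
Log2 fold change of each of the 32 tested interferon genes, TG relative to WT, with its 95% interval from edgeR. Colours mark the role of the gene, the solid line marks 0 and the dashed line the median of -0.17. The estimates run from -0.55 (Gbp3) to 0.43 (Ifi27), 28 lie left of 0, and the interval of Gbp3 alone does not cross 0.

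The levels compared per gene length (FPKM, fragments scaled to gene length and library size) spanned a wide range. The set had a median of 6.06 FPKM, close to the 6.95 FPKM of all genes tested. In the mean over the libraries 9 genes reached 10 FPKM, 20 lay between 1 and 10 FPKM, and 6 lay under 1 FPKM. The most abundant was Ifi27l2a, a small hydrophobic protein of the Ifi27 family, at 69.8 ± 30.8 FPKM in the TG hearts and 71.0 ± 9.6 FPKM in WT (SD, n = 4 each). It was followed by Lgals3bp, a secreted galectin-binding glycoprotein, at 38.0 ± 5.5 and 41.0 ± 5.7 FPKM, and by Bst2, at 29.4 ± 4.6 and 34.6 ± 3.2 FPKM (SD, n = 4 each). Ifi27 stood at 26.2 ± 13.5 and 19.6 ± 1.9 FPKM and Isg20 at 18.6 ± 7.7 and 16.8 ± 3.0 FPKM (SD, n = 4 each). In TG the libraries of each gene in this order overlapped those of the next. In WT every Ifi27l2a value lay above every Lgals3bp value and every Bst2 value above every Ifi27 value, while the other neighbours overlapped.

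**Figure D2:**
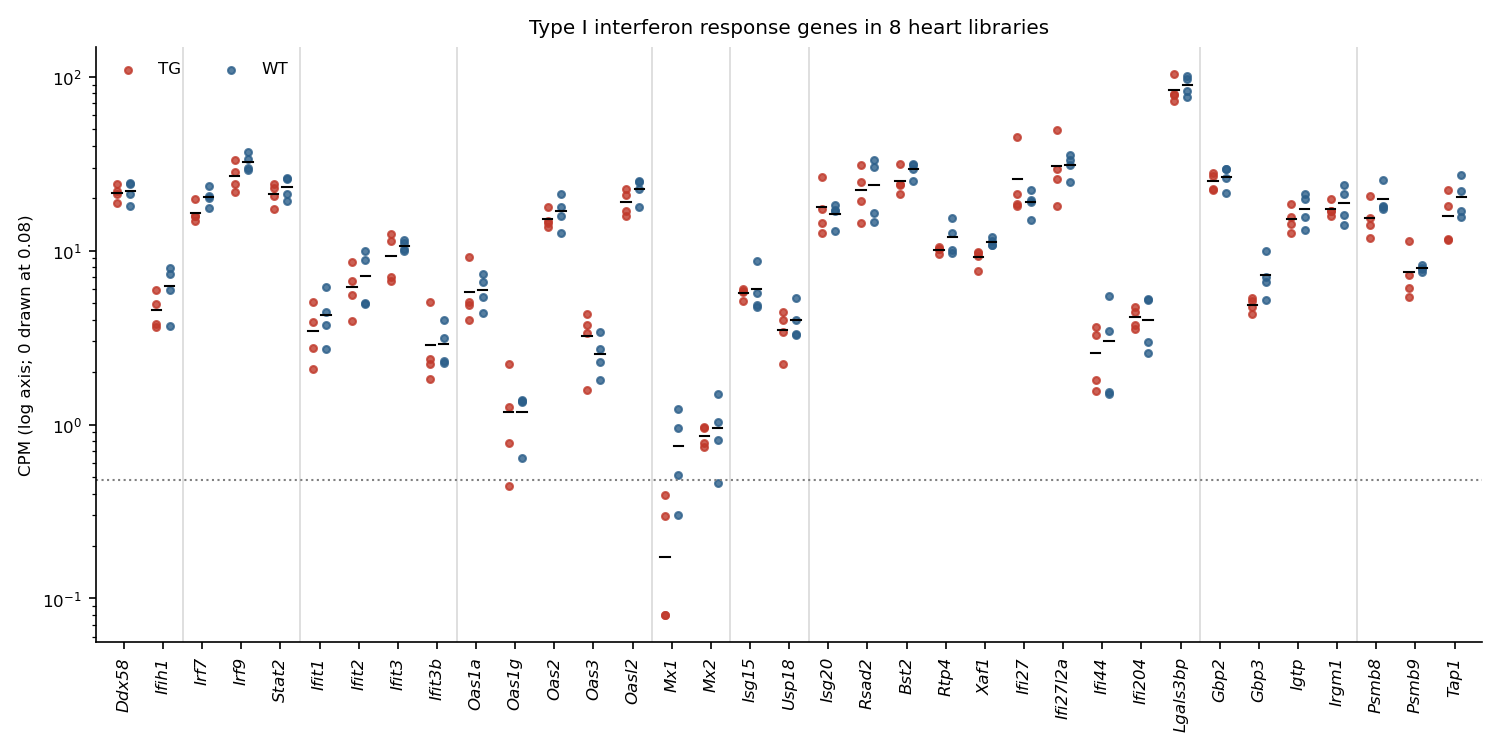
Level of all 35 interferon genes in each library in CPM on a log axis, TG in red and WT in blue, with a bar at each group mean; grey lines separate roles, and the dotted line is 0.479 CPM, the level of 3 counts in the shallowest library. TG and WT points overlap in 34 of 35 genes, Xaf1 being the exception, and Mx1 lies near or under the dotted line in most libraries.

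Among the sensors, Ddx58 (RIG-I) stood at 21.5 ± 2.2 CPM in the TG hearts and 21.9 ± 3.0 CPM in WT (SD, n = 4 each). Ifih1 encodes MDA5, the sensor of long double-stranded RNA. It stood at 3.78, 4.92, 3.61 and 5.94 CPM in TG replicates 1 to 4 and at 5.92, 3.68, 7.37 and 7.95 CPM in WT replicates 1 to 4. WT replicates 3 and 4 were the highest, WT replicates 1 and 2 lay within the range of the TG libraries, and the groups overlapped. The log2 fold change was -0.45 (SE 0.26).

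The transcription factors of the response stood lower in TG without passing the test. Irf7, the factor that amplifies interferon production, stood at 19.8, 15.7, 15.7 and 14.7 CPM in the TG hearts and at 20.5, 23.5, 17.6 and 20.2 CPM in WT. TG replicate 1 lay above the lowest WT library, and the other TG libraries lay below all WT libraries. The log2 fold change was -0.31 (SE 0.14). Irf9, the DNA-binding subunit of the ISRE-binding complex, stood at 33.3, 28.4, 24.2 and 21.7 CPM in the TG hearts and at 36.8, 29.7, 29.2 and 33.6 CPM in WT. TG replicates 2 to 4 lay below every WT library and TG replicate 1 did not (log2 fold change -0.27, SE 0.15, or -0.18 without TG replicate 4). Stat2, its partner, stood at 21.3 ± 3.0 and 23.1 ± 3.3 CPM (SD, n = 4 each).

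The IFIT proteins bind viral RNA that lacks the host cap and block its translation. Ifit1 stood at 2.74, 5.08, 2.09 and 3.86 CPM in the TG hearts and at 3.74, 2.73, 6.17 and 4.43 CPM in WT. The groups overlapped, with the lowest value in TG and the highest in WT, and the log2 fold change was -0.31 (SE 0.31). It was -0.09 without WT replicate 3, -0.14 without TG replicate 3, -0.48 without WT replicate 2 and -0.55 without TG replicate 2. Ifit2 ranged from 3.91 to 8.62 CPM in the TG hearts and from 4.91 to 9.93 CPM in WT, and Ifit3 from 6.67 to 12.4 and from 9.96 to 11.5 CPM. Ifit3b, a close copy of Ifit3, ranged from 1.83 to 5.08 CPM in the TG hearts and from 2.26 to 3.97 CPM in WT. The counts of Ifit1, Ifit3 and Ifit3b were not whole in any library, so they depend on how reads shared with other genes were divided and are uncertain.

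The OAS proteins make 2'-5'-linked oligoadenylates that activate the nuclease RNase L. Oasl2, a family member with ubiquitin-like domains, stood at 22.4, 20.9, 15.7 and 16.9 CPM in the TG hearts and at 25.1, 17.7, 24.7 and 22.6 CPM in WT. WT replicate 2 lay among the TG libraries, and the log2 fold change was -0.24 (SE 0.16). Oas2 stood at 15.1 ± 1.8 and 16.9 ± 3.6 CPM and Oas1a at 5.75 ± 2.30 and 5.92 ± 1.30 CPM (SD, n = 4 each). Oas3 lay on the other side of 0, from 1.59 to 4.31 CPM in the TG hearts and from 1.80 to 3.41 CPM in WT. Its log2 fold change was 0.19 without TG replicate 1 and 0.57 without TG replicate 2. Oas1g, which did not pass the filter, stood between 0.446 and 2.22 CPM in the TG hearts and between 0.644 and 1.38 CPM in WT. The counts of Oas1a, Oas1g and Oas3 were not whole in any library and are uncertain in the same way.

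The MX proteins are dynamin-like GTPases that trap viral ribonucleoproteins. Mx1 was listed at 0.391, 0, 0 and 0.297 CPM in the TG hearts and at 0.515, 0.955, 0.301 and 1.22 CPM in WT, which is 5 counts in all TG libraries together and 21 in all WT libraries. No TG library held more than 3 counts. With no filter on low counts its fitted log2 fold change was -1.96, with an unadjusted p of 0.0224 and an adjusted p of 0.9998 (edgeR, Benjamini-Hochberg). Mx2 stood between 0.743 and 0.973 CPM in the TG hearts and between 0.459 and 1.504 CPM in WT.

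Isg15 is a ubiquitin-like protein attached to other proteins during the response, and Usp18 is the protease that removes it and also blocks the interferon receptor. Isg15 stood at 5.70 ± 0.38 CPM in the TG hearts and 6.02 ± 1.85 CPM in WT (SD, n = 4 each). Its promoter, shown above, held the most motif matches among the 27 genes with a window. Usp18 stood at 3.39, 3.97, 2.22 and 4.46 CPM in the TG hearts and at 3.99, 3.27, 3.31 and 5.35 CPM in WT. TG replicate 3 was the lowest and WT replicate 4 the highest, with the others mixed (log2 fold change -0.18, SE 0.26). Without TG replicate 3 it was -0.017, without WT replicate 4 -0.016 and without TG replicate 4 -0.32.

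Among the other effectors, Xaf1, a pro-apoptotic partner of the inhibitor XIAP, was the only gene of the set whose groups did not overlap. It stood at 9.66, 9.84, 7.65 and 9.36 CPM in the TG hearts and at 10.8, 12.005, 10.8 and 11.3 CPM in WT. All TG libraries lay below all WT libraries, with a log2 fold change of -0.30 (SE 0.15) that did not pass the test. This was 1 of 32 genes (3.12%), where 1.29% of all genes had every TG value below every WT value. No gene of the set had every TG value above every WT value, where the background was 1.23%. The counts of Xaf1 were not whole in any library, nor were those of Irf9, Ifi204, Igtp, Irgm1 and Tap1, so these too depend on how shared reads were divided.

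Bst2, tetherin, which holds budding virus at the membrane, stood at 31.6, 23.8, 24.0 and 21.1 CPM in the TG hearts and at 31.2, 29.3, 31.6 and 25.1 CPM in WT. TG replicate 1 was as high as the highest WT libraries, and WT replicate 4 lay near the other TG libraries (log2 fold change -0.22, SE 0.14, or -0.35 without TG replicate 1 and -0.14 without TG replicate 4). Lgals3bp stood at 103, 78.7, 79.4 and 72.0 CPM in the TG hearts and at 82.3, 97.3, 76.0 and 101 CPM in WT. The highest and the lowest value were both from TG. Isg20, an RNA exonuclease, stood at 12.7, 17.3, 14.5 and 26.4 CPM in the TG hearts and at 12.9, 16.8, 16.995 and 18.3 CPM in WT, with TG replicate 4 above all others.

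Ifi27, an interferon-induced protein of mitochondria and the nuclear envelope, stood at 21.3, 44.7, 18.6 and 18.1 CPM in the TG hearts and at 19.5, 22.4, 19.1 and 14.98 CPM in WT. Ifi27l2a stood at 29.4, 49.0, 18.1 and 25.8 CPM in the TG hearts and at 31.2, 35.5, 24.8 and 33.0 CPM in WT. In both, TG replicate 2, the library with the most of the fat and atrial markers, was the highest. The part of those tissues in their levels was not tested. Without TG replicate 2 the log2 fold change of Ifi27 was 0.03 and that of Ifi27l2a -0.35.

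Rsad2, viperin, which blocks viral replication, ranged from 14.4 to 31.2 CPM in the TG hearts and from 14.6 to 33.2 CPM in WT. Rtp4 stood at 10.1 ± 0.4 and 11.95 ± 2.67 CPM, and Ifi204, a sensor of DNA, at 4.12 ± 0.58 and 4.00 ± 1.42 CPM (SD, n = 4 each). Ifi44 ranged from 1.57 to 3.65 CPM in the TG hearts and from 1.501 to 5.50 CPM in WT. The groups overlapped in each of these genes.

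The interferon-inducible GTPases act on the membranes around intracellular pathogens. Gbp3, a guanylate-binding protein, stood at 4.31, 4.76, 5.14 and 5.35 CPM in the TG hearts and at 7.08, 5.18, 6.62 and 9.93 CPM in WT. WT replicate 2 lay among the TG libraries, and the other WT libraries lay above all of TG. It had the most negative log2 fold change of the set, -0.55 (SE 0.22), with an unadjusted p of 0.024 and an adjusted p of 0.9995 (edgeR, Benjamini-Hochberg). Without WT replicate 4 it was -0.37, and no gene of the set then had an unadjusted p under 0.05. The counts of Gbp3 were not whole in 7 libraries, so they too depend on how shared reads were divided. Gbp2 stood at 25.0 ± 2.8 CPM in the TG hearts and 26.5 ± 3.8 CPM in WT, Igtp at 15.2 ± 2.5 and 17.3 ± 3.7 CPM, and Irgm1 at 17.3 ± 1.7 and 18.8 ± 4.6 CPM (SD, n = 4 each). So the promoters of Gbp3 and Irgm1, shown above with 2 overlapping matches each, belonged to genes with log2 fold changes of -0.55 and -0.12.

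Psmb8 and Psmb9 are catalytic subunits of the immunoproteasome, and Tap1 moves the peptides it makes into the endoplasmic reticulum. Psmb8 stood at 20.5, 11.7, 15.4 and 14.0 CPM in the TG hearts and at 25.4, 18.1, 17.9 and 17.4 CPM in WT. TG replicates 2 to 4 lay below every WT library, TG replicate 1 lay above 3 of them, and WT replicate 1 stood above all others (log2 fold change -0.35, SE 0.19). Tap1 stood at 22.3, 11.6, 17.9 and 11.4 CPM in the TG hearts and at 27.3, 16.9, 15.5 and 21.9 CPM in WT. The groups overlapped, with TG replicates 2 and 4 the lowest (log2 fold change -0.36, SE 0.24). Without WT replicate 1 the log2 fold changes were -0.20 for Psmb8 and -0.18 for Tap1, and without TG replicate 1 that of Tap1 was -0.57. Psmb9, whose promoter window shares most of its bases with that of Tap1, stood at 7.52 ± 2.67 CPM in the TG hearts and 7.89 ± 0.30 CPM in WT (SD, n = 4 each). The constitutive subunits Psmb5, Psmb6 and Psmb7, whose sites the immunoproteasome subunits take, stood between 111 and 159 FPKM in the group means, against 12.6 FPKM (TG) and 16.3 FPKM (WT) for Psmb8.

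Genes with and without a motif match both stood mostly below 0. The 15 tested genes with an ISRE match had a median log2 fold change of -0.12, with 14 of 15 below 0. The 11 without a match had a median of -0.24, with 10 of 11 below 0.

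The set varied about as much between libraries of a group as between the groups: the mean log2 deviation of its 32 tested genes was -0.07 ± 0.11 over the TG libraries and 0.07 ± 0.16 over the WT libraries (SD, n = 4 each). TG replicate 3 lay below the mean of the 8 libraries in 30 of 32 genes, was the lowest library in 7 and the highest in none. WT replicate 4 lay above that mean in 28 of 32, was the highest library in 9 and the lowest in 2. By library this deviation was -0.04, 0.01, -0.23 and -0.03 in TG replicates 1 to 4 and 0.03, -0.12, 0.13 and 0.26 in WT replicates 1 to 4. WT replicate 2 thus lay below 3 of the TG libraries. Summed over all 35 genes the level ran from 445 to 537 CPM in the TG hearts and from 504 to 597 CPM in WT, and these ranges overlapped.

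The median of -0.17 rested in part on these libraries. Without WT replicate 4 it was -0.05, with 22 of 32 genes below 0, and without TG replicate 3 it was -0.08, with 24 of 32 below 0. Without TG replicate 2 it was -0.19, with 28 of 33 below 0.

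**Figure D3:**
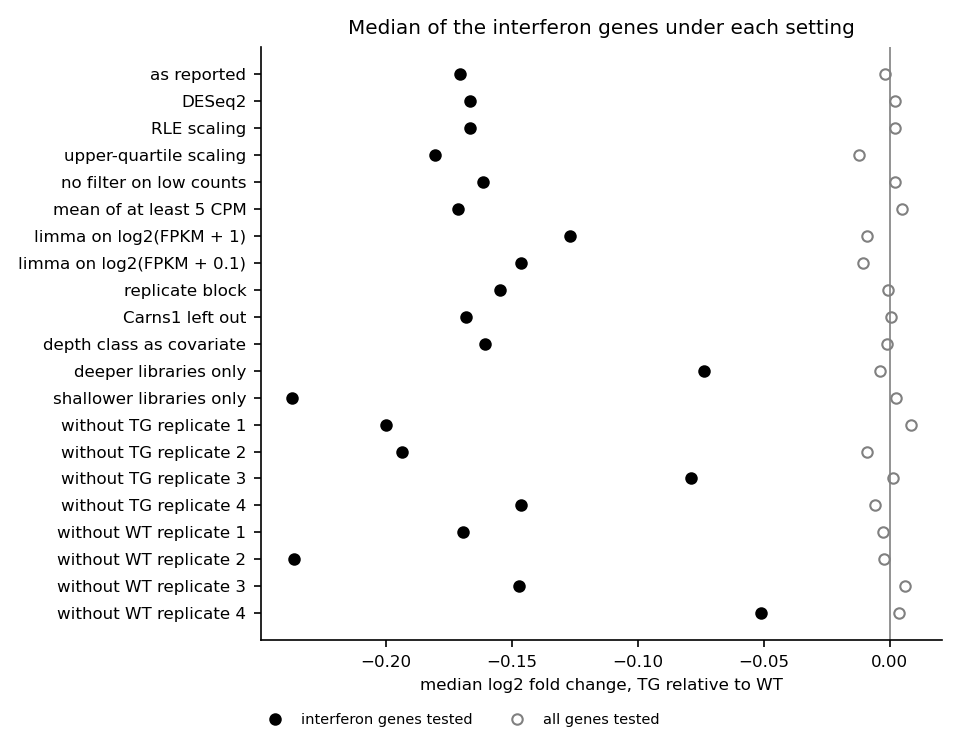
Median log2 fold change of the interferon genes tested (filled) and of all genes tested (open) in each of 21 fits, which differ in tool, scaling, filter or libraries. The filled points run from -0.24 to -0.05, the weakest being the fit without WT replicate 4, and the open points lie near 0.

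Library depth moved with part of the set. In 8 of 32 genes (25.0%) all 4 shallower libraries lay above all 4 deeper ones, where the background over all genes was 16%. In none of the 32 did they all lie below, where the background was 13.9%. The 8 genes were Ddx58, Ifit1, Ifit2, Isg20, Rsad2, Ifi44, Ifi204 and Gbp2. Rsad2 stood at 16.2 ± 2.3 CPM in the deeper and 29.9 ± 3.6 CPM in the shallower libraries, and Ifi44 at 1.61 ± 0.14 and 3.97 ± 1.03 CPM (SD, n = 4 each). The fibroblast markers split in the same way, with sums of 1284 to 1369 CPM in the deeper and 1510 to 2056 CPM in the shallower libraries. What sets the classes apart was not tested. Within the deeper libraries the median of the set was -0.07 (21 of 33 genes below 0), and within the shallower it was -0.24 (26 of 32). With the class as a covariate it was -0.16 with 28 of 32 below 0, and no gene of the set was called, at a smallest adjusted p of 0.431 (edgeR, Benjamini-Hochberg).

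**Figure D4:**
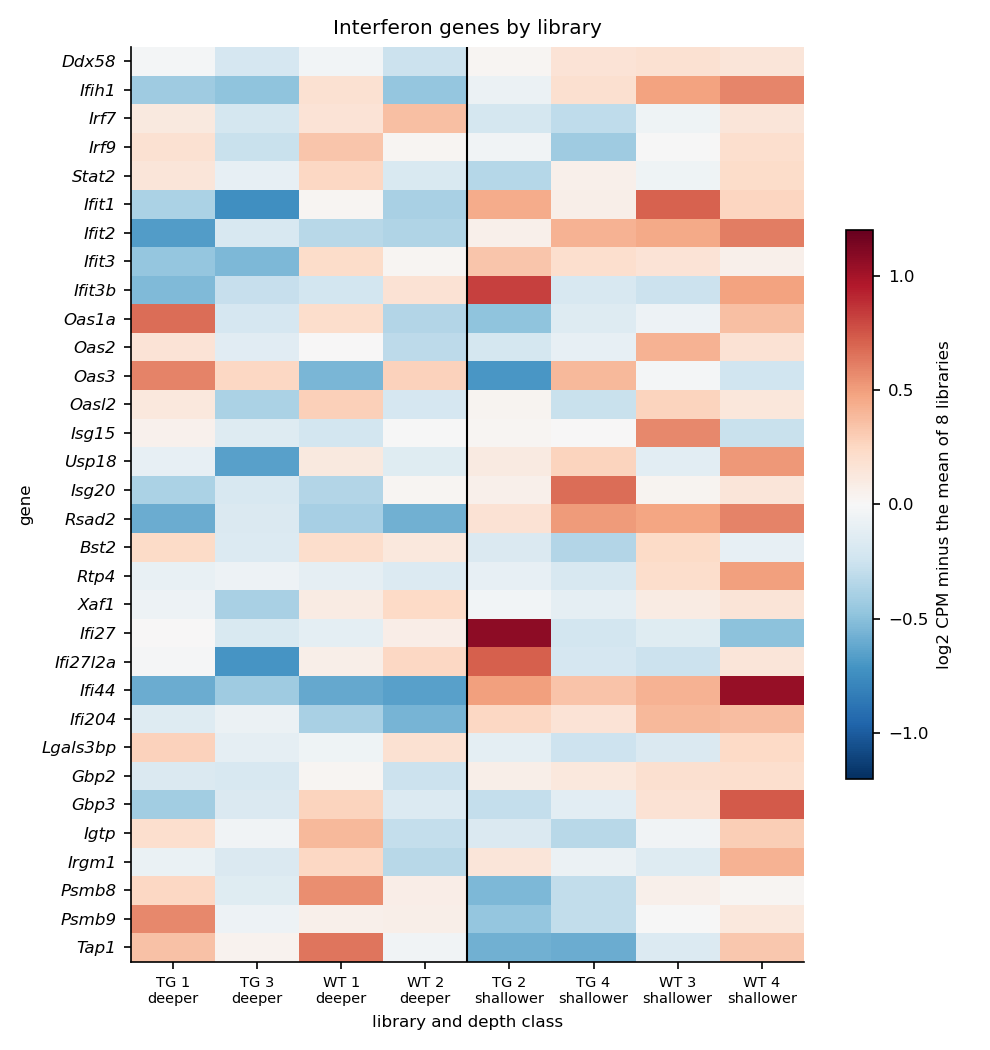
Log2 CPM of the 32 tested interferon genes in each library minus the gene's mean over the 8 libraries, red for higher and blue for lower, with the deeper libraries left of the black line and the shallower right of it. TG replicate 3 is blue in nearly every row, WT replicate 4 is red in most, and Rsad2, Ifi44 and Ifit2 are blue in the deeper and mostly red in the shallower libraries.

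The rest of the pathway was read from lists of 122 further genes, of which 116 were tested. None was called by edgeR, 2 were higher and 4 lower at an unadjusted p under 0.05, and DESeq2 called 1, Cxcl9. Over all genes these shares were 1.53%, 1.96% and 0.118%, as given above. In all 82 of 116 (70.7%) stood below 0, with a median of -0.08. None of the 13 interferon ligand genes looked for was listed in any library. The levels of these genes are bulk values, in which fewer cells of a type and less RNA per cell cannot be told apart.

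The genes that receive and pass on the signal lay on both sides of 0. Of 10 receptor and Janus kinase genes 5 stood below 0, with a median of 0.01. Ifnar1, a chain of the receptor for interferon alpha and beta, stood at 55.7 ± 4.0 CPM in the TG hearts and 58.8 ± 2.1 CPM in WT, and Ifngr2, a chain of the interferon gamma receptor, at 446 ± 58 and 440 ± 51 CPM (SD, n = 4 each). Of 20 genes of nucleic acid sensing, which include sensors, adaptors, kinases and factors, 13 stood below 0, with a median of -0.01. Mavs, the adaptor of RIG-I and MDA5, stood at 132.0 ± 7.7 and 132.0 ± 14.1 CPM (SD, n = 4 each). Of 12 genes that restrain the signal 6 stood below 0, with a median of 0.00. Socs1, an inhibitor of the Janus kinases, stood at 1.57 ± 0.36 and 2.34 ± 0.69 CPM (SD, n = 4 each).

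Other interferon-induced genes also stood mostly below 0. Of 45 tested 38 (84.4%) stood below 0, with a median of -0.13, which was -0.03 within the deeper libraries. Iigp1, a GTPase that coats pathogen vacuoles, stood at 12.7, 16.8, 10.1 and 12.9 CPM in the TG hearts and at 25.8, 13.8, 24.2 and 33.5 CPM in WT. WT replicate 2 lay among the TG libraries, and the other WT libraries lay well above all of TG. Its log2 fold change of -0.89 (SE 0.24) did not pass the test, at an adjusted p of 0.727 (edgeR, Benjamini-Hochberg). Slfn5 and Gbp4 had log2 fold changes of -0.36 (SE 0.15) and -0.54 (SE 0.24).

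Of the other IRF factors, Irf1, which drives genes shared by both interferon types, stood at 33.8, 31.4, 38.4 and 32.2 CPM in the TG hearts and at 51.1, 48.3, 39.1 and 38.5 CPM in WT. Every TG library lay below every WT library, with the highest TG value next to the lowest WT value, and the log2 fold change of -0.38 (SE 0.13) did not pass the test. Irf8, a factor of myeloid cells, stood at 11.4 ± 0.8 and 13.3 ± 1.5 CPM (SD, n = 4 each), also without overlap. These were the 2 of 116 pathway genes (1.72%) with every TG value below every WT value, against 1.29% of all genes. Another 2 of the 116 had every TG value above every WT value, where the background was 1.23%.

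Of 7 interferon-induced chemokines 3 were tested, and 1 of the 3 stood below 0. Their log2 fold changes ran from -0.39 to 0.86, with a median of 0.12. Cxcl9, a chemokine induced by interferon gamma, lay on the other side from the set. It stood at 14.7, 12.7, 11.8 and 10.7 CPM in the TG hearts and at 7.599, 7.09, 6.77 and 5.96 CPM in WT. All TG libraries lay above all WT libraries, and the log2 fold change was 0.86 (SE 0.16), at an adjusted p of 0.181 (edgeR, Benjamini-Hochberg). DESeq2 called it at a Benjamini-Hochberg adjusted p of 0.0259, as did edgeR with the depth class as a covariate (Benjamini-Hochberg adjusted p = 0.0296). Its counts were not whole in any library, nor were those of Slfn5 and Gbp4. Among 18 further genes of MHC class I and the immunoproteasome 14 stood below 0, with a median of -0.12. Psmb10, the third immunoproteasome subunit, stood at 54.9 ± 5.8 and 62.5 ± 5.7 CPM and B2m, the light chain of MHC class I, at 299.9 ± 75.7 and 325.5 ± 80.9 CPM (SD, n = 4 each).

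By mean log2 deviation, markers of macrophages and dendritic cells were lowest and highest in the same libraries as the set. Of 18 tested markers 17 stood below 0, with a median of -0.23. That median was -0.07 without WT replicate 4 and -0.14 without TG replicate 3. The mean log2 deviation of the markers was 0.14, -0.12, -0.48 and 0.02 in TG replicates 1 to 4 and -0.10, -0.02, 0.11 and 0.45 in WT replicates 1 to 4, so that TG replicate 3 was the lowest and WT replicate 4 the highest library, as for the interferon genes. The summed level of all 19 ran from 989 to 1744 CPM in the TG hearts and from 1306 to 1699 CPM in WT. This sum was highest in TG replicate 1, whereas that of the interferon genes was highest in WT replicate 4. Csf1r, the receptor that defines macrophages and the marker with the smallest p, ran from 67.1 to 95.9 CPM in the TG hearts and from 89.2 to 122 CPM in WT. Cd74, the most abundant marker, ran from 254 to 505 CPM in TG, with TG replicate 1 the highest, and from 312 to 388 CPM in WT. Its log2 fold change was -0.11 (SE 0.20), and that of Cd163, the marker above 0, was 0.15 (SE 0.31). The part of these cells in the level of the interferon genes was not tested.

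Markers of the other immune cells were low. The markers of plasmacytoid dendritic cells, a main source of interferon alpha, summed to 0.952 to 1.11 CPM in the TG hearts and 0.764 to 1.93 CPM in WT, and Siglech did not exceed 0.476 CPM in any library. Those of T and NK cells summed to 4.60 to 7.44 CPM in the TG hearts and 4.81 to 7.03 CPM in WT, and those of B cells to 3.52 to 4.75 and 3.61 to 7.34 CPM. The neutrophil markers summed to between 16.02 and 30.3 CPM in TG and between 13.9 and 21.4 CPM in WT, mostly from Cxcr2 (8.41 to 12.4 CPM over all libraries) and Csf3r (4.12 to 9.06 CPM), while Ly6g was at 0 in 7 of 8 libraries. The endothelial markers ran from 1744 to 2217 CPM in the TG hearts and from 1888 to 2308 CPM in WT, with 5 of 10 below 0.

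**Figure D5:**
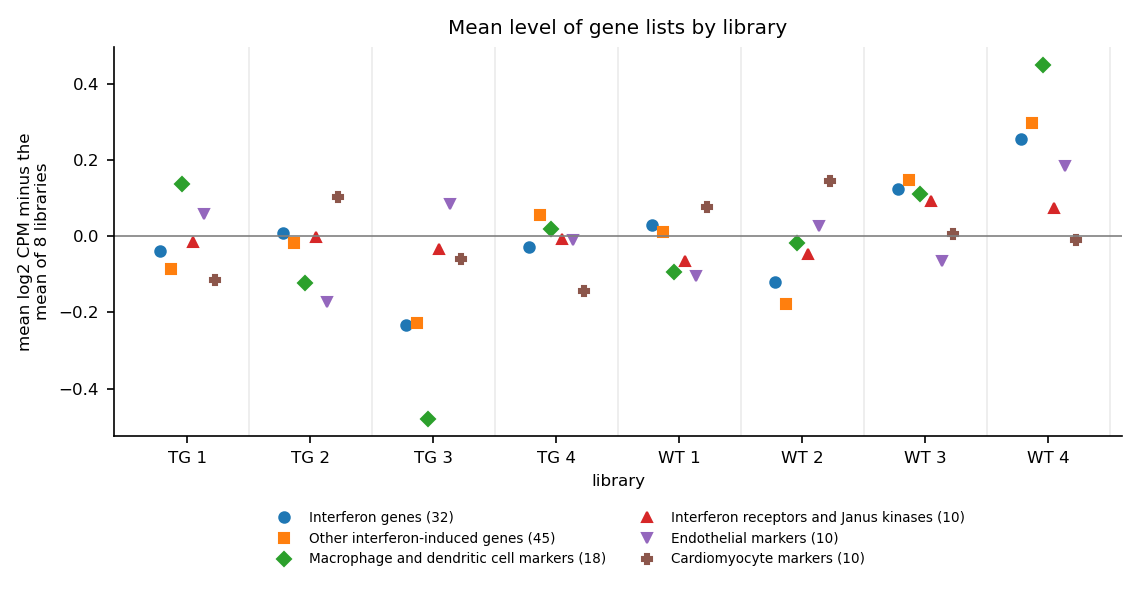
Mean log2 CPM of gene lists in each library minus the mean over the 8 libraries, with the number of tested genes in brackets. The interferon genes, the other interferon-induced genes and the macrophage and dendritic cell markers are lowest in TG replicate 3 and highest in WT replicate 4, and the receptors and Janus kinases stay within 0.1 of 0.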

How the data were processed

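Each library's table gives, per the file headers, 2 values for every gene, named by its NCBI number: an expected count and an FPKM. The expected counts, as deposited by the authors, are estimated reads or fragments per gene and are not normalized. The deposited FPKM values were scaled by the authors to gene length and to library size. The submitters' processing notes name Bowtie2 and the mouse build mm8. Their role, the counting program and the use of strand are not given in the sources used here. Genes not listed in a library were taken as 0 there.

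Expected counts were rounded to whole numbers. Symbols came from the NCBI gene table of GRCm38.p6, which matched 18174 of 18215 gene numbers. Its coordinates are given for promoter sequences only, and no measured value rests on them. Genes were kept with filterByExpr (minimum count 10, minimum total 15), which left 12670. The comparison used edgeR's two-sided quasi-likelihood F-test (edgeR 4.0.16, R 4.3.3) with TMM scaling and group alone, and Benjamini-Hochberg adjustment over all 12670 genes at a threshold of 0.05. CPM values use TMM-scaled totals, log2 library values a prior count of 2, and SE is the size of the log2 fold change over the root of F. DESeq2 1.42.0 and limma 3.58.1 on log2(FPKM + 1) and log2(FPKM + 0.1) were alternatives, with other scalings and filters, the depth class, a replicate block, Carns1 left out and each library left out. Depth classes split the totals at the widest gap between them, whose middle is 6975853 counts. The floor of 3 counts covers counting error alone, because PCR copies were not marked. Fitting was tested on simulated counts.

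Some pathway genes are not reported here. The 35 genes and the other lists were chosen with earlier results of these data known. Values in every library are given for genes of at least 1 FPKM in a group with the 10 smallest unadjusted p-values or among the 6 most abundant, and for the gene of smallest p in each role. Of each other list up to 3 genes with the smallest p and the most abundant one could be named, and others were named after their values were seen. Libraries of a group differed by more than sampling noise (chi-square of at least 4.29 times its degrees of freedom for each pair). Of the 35 genes, 12 had counts that were not whole in any library and 15 had whole counts in all 8.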

Additional observations from a re-analysis of the deposited data

Results flagged for a closer look

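Of 70 sets of 4 values checked, 1 for each of the 35 genes in each group, 4 held a library far from the other 3. By chance about 1 in 20 such sets does. Ifi27 stood at 44.7 CPM in TG replicate 2, where the next TG library had 21.3 CPM. Ifit3b stood at 5.08 CPM in the same library, with the next at 2.38 CPM. Psmb8 stood at 25.4 CPM in WT replicate 1, with the next WT library at 18.1 CPM. Oas1g stood at 0.644 CPM in WT replicate 1, below the next WT library at 1.35 CPM.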

How the results depend on the processing

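No interferon gene was called in any of the 21 fits, and their median log2 fold change stayed below that of all genes in each, from -0.24 to -0.05. Over all genes, the 2 calls became 15 with DESeq2, 4 with no filter on low counts, 1 with either limma fit, 0 with Carns1 left out, 28 with the depth class as a covariate, 59 in the deeper libraries, 4 in the shallower libraries and 1 to 3 when each library was left out. With the replicate number as a replicate block 1 gene was called, and the median of the interferon genes was -0.15 with 28 of 32 below 0. The deviations of same-numbered libraries from their group means correlated at 0.24, -0.28, -0.18 and 0.40, so the numbers were not taken to pair the samples, and not every library correlated best with its own number. The pathway genes called, run under these settings after the data were seen, rose from 0 to 1 with DESeq2 and with the depth class as a covariate, Cxcl9 each time. The cause of these changes was not tested. With no filter 30 of 35 interferon genes lay below 0.

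Of the 32 genes 16 kept their sign in all fits that tested them. In the deeper libraries alone the log2 fold changes were 0.24 for Psmb9, 0.0267 for Lgals3bp, 0.0325 for Ddx58, -0.0656 for Ifi27, -0.13 for Isg20, 0.11 for Rsad2, 0.0613 for Rtp4, 0.14 for Ifi44, 0.17 for Oas2, 0.36 for Oas1a and 0.073 for Isg15. In the shallower libraries alone they were -0.18 for Ifi204, 0.16 for Ifit3, 0.37 for Ifi27l2a and 0.25 for Ifit3b. With 1 library left out the range was -0.11 to 0.036 for Ddx58, -0.11 to 0.21 for Ifi204, -0.35 to 0.15 for Ifi27l2a, -0.44 to 0.25 for Ifi44, -0.44 to 0.14 for Ifit3b, -0.24 to 0.0132 for Irgm1, -0.17 to 0.15 for Isg15, -0.14 to 0.26 for Isg20, -0.35 to 0.11 for Oas1a, -0.33 to 0.0675 for Psmb9 and -0.28 to 0.13 for Rsad2.

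At these depths 3 counts equal 0.380 to 0.479 CPM, and Mx1 lay near this level in TG. Fits with 2 libraries a group in a depth class have few residual degrees of freedom.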
